A study of Homo sapiens with 9 samples.

Results

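The 3 replicate 3 libraries of NLF, a human neuroblastoma line, were compared with the 3 replicate 1 libraries, so 6 of 9 RNA-seq libraries enter this comparison. NLF is one tumour-derived line, labelled as wild-type neural crest cells, and the same line served in all groups. Each replicate number holds 1 library of cells given a non-targeting siRNA (siNTC), 1 given an siRNA against the transcription factor TBX2 (siTBX2) and 1 given an siRNA against its antisense long noncoding RNA (siTBX2-AS1), each for 48 hours. Libraries were chosen by the replicate number in their column names, and this pair of numbers was selected with earlier results of the same libraries known. The labels call the libraries biological replicates and give a number only. They do not say that a number marks one culture, day or batch, so the numbers are used here as names. The replicate 2 libraries were set beside both.

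Levels are CPM (counts relative to library totals adjusted by TMM), differences are log2 of replicate 3 over replicate 1 with the siRNA as a block, and their standard error (SE) comes from the edgeR quasi-likelihood fit to all 9 libraries. Because the pair was selected on these data, the differences between replicates 3 and 1 are a description and carry no p value. A gene is called higher or lower where its Benjamini-Hochberg adjusted p in that fit was under 0.05, and this serves to sort genes only. Counts of genes at an unadjusted p under 0.05 between replicates 3 and 1 sort genes in the same way and are no test. A contrast orthogonal to that one sets replicate 2 against the mean of replicates 1 and 3, and its edgeR adjusted p values are given. Choosing the pair also fixed this contrast, so its p values are not free of that choice. Across siRNAs n = 3 for each replicate number, and within one siRNA each replicate number is a single library.

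Total counts ran from 31894280 to 51434090 per library, TMM factors from 0.973 to 1.02, and the 50 most abundant genes took 15.97% to 16.75% of counts. Depth was lowest in the siTBX2-AS1 replicate 3 library. Of the adrenergic neuroblastoma markers, HAND2 was at 150.3 to 247.2 CPM and MYCN at 234.0 to 449.2 CPM, while DBH, CHGA and CHGB were under 3 CPM and TH was at 0 in all 9 libraries. Markers of other cells were low for leukocytes, whose summed level was 1.49 to 4.71 CPM, and for the Schwann and melanocyte lineage, at 22.1 to 40.7 CPM, with SOX10 and MLANA at 0 throughout. Fibroblast and endothelial markers summed to 1006 to 1488 CPM, most of it COL3A1, with KDR and CDH5 at or near 0. The part of other cells in the differences was not tested. In bulk RNA, fewer cells of a type and less RNA per cell cannot be told apart.

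The siRNA targets were read first. TBX2 stood at 275.9, 254.3 and 249.4 CPM in siNTC replicates 1, 2 and 3, and at 127.4, 110.1 and 112.9 CPM in siTBX2. TBX2-AS1 stood at 37.5, 34.0 and 37.4 CPM in siNTC and at 4.71, 5.87 and 0.714 CPM in siTBX2-AS1, where the replicate 3 library held 23 counts against 244 and 232. The libraries of each target's own siRNA were below all siNTC libraries for that target, and the residual TBX2-AS1 differed between replicates. Over the 3 siRNAs TBX2 differed by 0.01 ± 0.13 (SE) and TBX2-AS1 by -0.45 ± 0.57 on the log2 scale between replicates 3 and 1, and neither was called.

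Of 18367 genes tested, 291 were called higher in replicate 3 (1.58%) and 406 lower (2.21%), together 697 (3.79%). At least a 2-fold difference was seen in 89 of the higher and 103 of the lower genes, and at least 8-fold in 13 and 13. All 697 differed in the same direction under siNTC, siTBX2 and siTBX2-AS1, against 45.5% of all genes tested. The 3 libraries of one number lay wholly above or below the 3 of the other for 561 of the called genes, against 17.4% of genes tested. The calls were made on these same libraries, so these shares were set in part by the calls. On the first principal component, with 19% of the variance, the replicate 3 libraries had scores of 40.2, 26.7 and 57.5 and the other 6 libraries were all below 0. Leaving out any 1 of the 9 libraries cut the number of called genes to between 99 and 285, with 87 to 271 of them among the 697. Using only the 6 libraries of replicates 1 and 3 called 51, of which 46 were among the 697.

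The transcription factor p53 is activated by DNA damage and other stress and switches on genes that halt the cell cycle, repair DNA or prime cells for death. Its level is held down by MDM2, a ubiquitin ligase that is itself a p53 target, so that induction carries its own brake.

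Of the 45 gene lists, the p53 targets had the most called members. Of 29 tested members of a list of 30, 21 were called higher and none lower by edgeR, against 1.58% of all genes called higher. DESeq2 called 23 members higher and none lower. The median difference was 0.83 on the log2 scale, against 0.00 for all genes tested. Within siNTC, siTBX2 and siTBX2-AS1 it was 0.93, 0.92 and 0.80. Of the 29, 25 had one sign under all 3 siRNAs, against 45.5% of all genes. Summed over the list, the level was 1378 to 1419 CPM in the replicate 1 libraries, 1926 to 2093 CPM in replicate 2 and 2560 to 2826 CPM in replicate 3, with no overlap between numbers. Leaving out 1 library in turn, 11 to 19 members were called higher, none was called lower, and the median stayed between 0.80 and 0.91. With only the 6 libraries of replicates 1 and 3, 7 members were called higher and none lower.

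GDF15 and CDKN1A had the largest differences of the list. GDF15, a secreted stress cytokine, stood at 2.16, 2.08 and 2.72 CPM in the siNTC, siTBX2 and siTBX2-AS1 libraries of replicate 1. It stood at 10.7, 10.5 and 12.9 CPM in replicate 2 and at 23.7, 30.1 and 23.8 CPM in replicate 3. The libraries of the 3 numbers did not overlap, and replicate 3 was 11.2-fold above replicate 1, a log2 difference of 3.49 ± 0.16 (SE). CDKN1A, which encodes the cyclin-dependent kinase inhibitor p21, read 61.2, 60.2 and 70.7 CPM in replicate 1, 177.0, 174.2 and 161.6 CPM in replicate 2, and 308.1, 331.1 and 251.7 CPM in replicate 3. Its lowest replicate 3 library was above every other library, and the log2 difference was 2.21 ± 0.12 (SE). BTG2, an antiproliferative gene, differed by 1.47 ± 0.08 and PHLDA3, a repressor of AKT signalling, by 1.61 ± 0.07, each without overlap.

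Of the negative regulators of p53, MDM2 and PPM1D were called higher and MDM4, at 0.19 ± 0.14 (SE), was not. MDM2 was at 85.5, 79.1 and 76.1 CPM in replicate 1, at 153.9, 128.0 and 127.1 CPM in replicate 2 and at 250.5, 215.2 and 167.3 CPM in replicate 3. All replicate 3 libraries were above all others, and the difference was 1.38 ± 0.09 (SE). PPM1D, a phosphatase that dampens the damage response, was named after its values were seen. It had means of 67.7 ± 10.9, 143.2 ± 22.6 and 183.2 ± 34.2 CPM (SD, n = 3) in replicates 1, 2 and 3, a difference of 1.43 ± 0.06 (SE).

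Sestrins, which restrain mTORC1 under stress, were called higher as a pair, with SESN1 at 1.81 ± 0.10 and SESN2 at 1.3 ± 0.08 (SE). Among death genes, BBC3, which encodes the BH3-only protein PUMA, had means of 6.16 ± 0.61 CPM (SD, n = 3) in replicate 1 and 18.4 ± 5.46 CPM in replicate 3, without overlap, and the death receptor gene TNFRSF10B differed by 0.75 ± 0.07 (SE). BAX, which forms pores in mitochondria, was at 20.1 to 29.7 CPM in replicate 1 and 21.7 to 28.2 CPM in replicate 3, so the libraries overlapped, and it was not called. FAS, another death receptor gene, went from means of 2.24 ± 0.57 to 5.71 ± 0.47 CPM (SD, n = 3) without overlap, yet its difference of 1.34 ± 0.37 (SE) was not called. Repair and nucleotide supply genes called higher included XPC and DDB2 of nucleotide excision repair at 0.64 ± 0.06 and 0.73 ± 0.08 and the ribonucleotide reductase subunit gene RRM2B at 1.17 ± 0.11 (SE). Besides BAX and FAS, the members not called were ZMAT3, PLK2, GADD45A, SERTAD1, CCNG1 and POLH, with differences from 0.07 to 0.81.

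Genes outside the list, named after their values were seen, included INKA2, an inhibitor of the kinase PAK4, at 2.86 ± 0.11, the p53-induced noncoding RNA PINCR at 2.86 ± 0.39 and the autophagy gene DRAM1 at 1.53 ± 0.12 (SE), all called higher. Of the 9 fits that leave out a library, PINCR was called in 2, and INKA2 and DRAM1 in all 9. INKA2 was also among the 12 largest higher genes by the naming rule. Its replicate 2 mean was 16.2 ± 0.29 CPM (SD, n = 3), between 3.88 ± 0.34 CPM in replicate 1 and 28.3 ± 4.06 CPM in replicate 3.

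**Figure D1:**
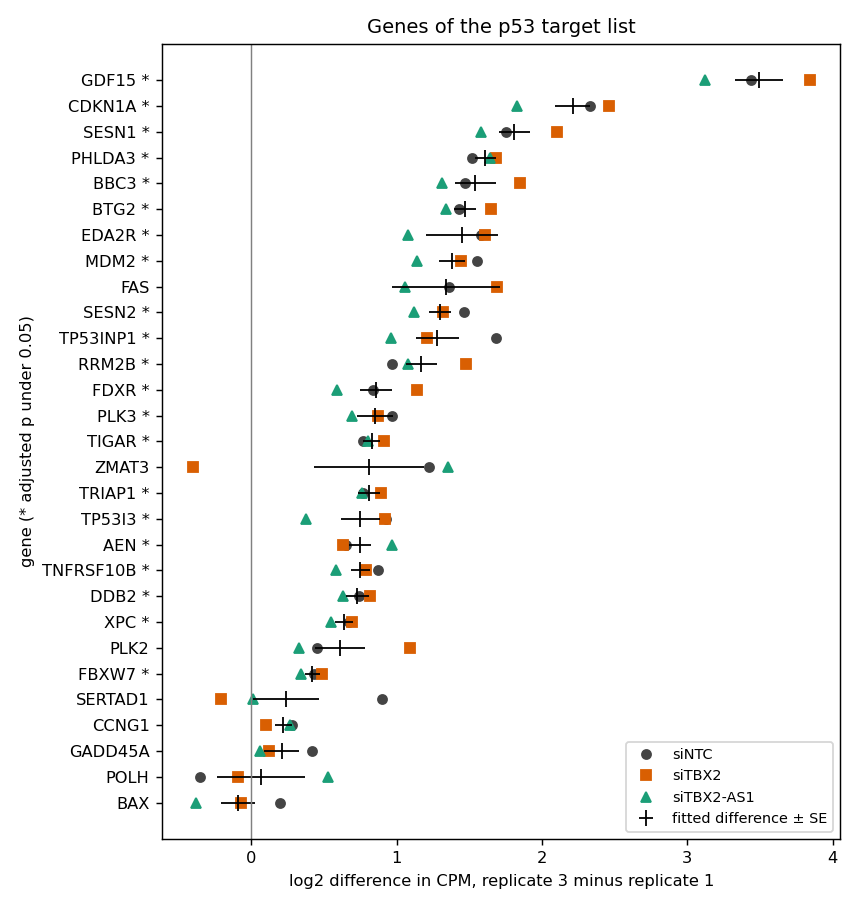
Log2 difference between replicate 3 and replicate 1 for the 29 tested p53 target genes. Symbols are single differences within siNTC, siTBX2 and siTBX2-AS1, and the black mark with its bar is the fitted difference ± SE. The 21 genes marked with an asterisk were called and all lie above 0, while BAX and POLH scatter around 0.

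Replicate 2 lay between the other numbers for the p53 targets. On a scale where replicate 1 is 0 and replicate 3 is 1, the 21 called members had a median position of 0.58, from -0.30 for TP53I3 to 0.74 for BBC3. The median of the 29 differences was 0.52 for replicate 2 over replicate 1 and 0.43 for replicate 3 over replicate 2. In the orthogonal contrast, replicate 2 was above the midpoint for 19 of 29 members and the median departure was 0.10. No member departed from the midpoint at an adjusted p under 0.05 (edgeR quasi-likelihood), and 7 had an unadjusted p under 0.05. For GDF15 the departure was 0.55 ± 0.13 (SE, adjusted p = 0.223, edgeR) and for CDKN1A 0.31 ± 0.10 (SE, adjusted p = 0.330, edgeR).

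Promoter sequence was read from RefSeq on GRCh38.p14, 250 bases before to 50 bases after each gene's start, for 24 of the 29 p53 targets and 11647 tested genes. The p53 response element, searched as 20 bases without a spacer and with up to 2 mismatches outside its fixed C and G, was found in 1 of 24 (4.2%) and in 0.2% of all. That one, in the gene of the nuclease AEN (0.75 ± 0.08 SE, called higher), lies 34 to 15 bases before the start at chr15:88621301-88621330, plus strand, with the element in capitals and 2 mismatches to the pattern.
AEN: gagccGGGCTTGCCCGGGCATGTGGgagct
A match is a description of letters, and elements outside this window were not searched.

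Heat shock proteins are chaperones that keep other proteins folded, and the inducible ones are switched on by the factor HSF1 at repeats of the letters GAA in both orientations. In the replicate 3 libraries 8 of 21 genes of the cytosolic heat shock list were called lower and 1 was called higher. Of all genes tested 2.21% were called lower and 1.58% higher. The list's median was -0.17, against 0.00 for all genes. Of the 21, 15 had one sign under all 3 siRNAs, against 45.5% of all genes. Between 1 and 5 members were called lower when 1 library was left out. The inducible HSP40 gene DNAJB1 was at 102.2, 112.9 and 105.3 CPM in siNTC, siTBX2 and siTBX2-AS1 of replicate 1, at 70.1, 71.7 and 80.3 CPM in replicate 2 and at 41.4, 56.0 and 56.7 CPM in replicate 3. The 3 numbers did not overlap, and the difference was -1.07 ± 0.10 (SE). DNAJB4, of the same family, differed by -1.42 ± 0.12, the HSP70 cochaperone gene BAG3 by -0.91 ± 0.10 and the constitutive HSP70 gene HSPA8 by -0.83 ± 0.11 (SE).

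HSPA1A and HSPA1B, near-identical inducible HSP70 genes, differed by -1.24 ± 0.23 and -1.26 ± 0.21 (SE). Their reads can be split between them by the authors' counting, so each value is uncertain, and HSPA1A was near 1 CPM. The single higher member was HSPA4L, of the HSP110 family, with means of 23.6 ± 7.55, 36.9 ± 10.8 and 59.2 ± 13.7 CPM (SD, n = 3) in replicates 1, 2 and 3 and a difference of 1.35 ± 0.07 (SE). The HSP90 genes HSP90AA1 and HSP90AB1, at 0.16 ± 0.15 and 0.01 ± 0.04, and HSF1, at 0.16 ± 0.10 (SE), were not called.

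The element GAANNTTC, read on both strands, was present in 6 of the 19 heat shock promoters with a RefSeq entry (31.6%) and in 4.7% of 11647 promoters of tested genes. This list was added to the motif reading although its median of -0.17 was smaller than the size set for it. Other motifs and lists that were read are not reported here. Genes were listed for their known part in heat shock, so these shares say nothing about the difference between replicates. HSPA1A and HSPA1B are near-identical and not separate cases. These 6 include members called lower and members not called, so they are shown together, 28 bases around the site nearest the 5′ end of each window, the element in capitals.
HSPA1A: gaaaaccctgGAATATTCccgacctggc
HSPA1B: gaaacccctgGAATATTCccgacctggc
HSPA8: gggcgagcttGAAAGTTCcagaacgctg
CHORDC1: ttctgccccgGAAATTTCtcctccgctg
DNAJA1: aagggctccaGAAGATTCcacgagcgcc
HSPB1: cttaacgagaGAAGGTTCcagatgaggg
They lie at chr6:31815427-31815454 and chr6:31827623-31827650 on the plus strand, chr11:123062349-123062376 and chr11:90223237-90223264 on the minus strand, and chr9:33025065-33025092 and chr7:76302481-76302508 on the plus strand (GRCh38.p14). HSPA1A, HSPA1B, HSPA8 and the cochaperone gene CHORDC1 (-0.70 ± 0.08 SE) were called lower. DNAJA1 at -0.36 ± 0.08 and HSPB1 at -0.17 ± 0.06 (SE) were not.

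**Figure D2:**
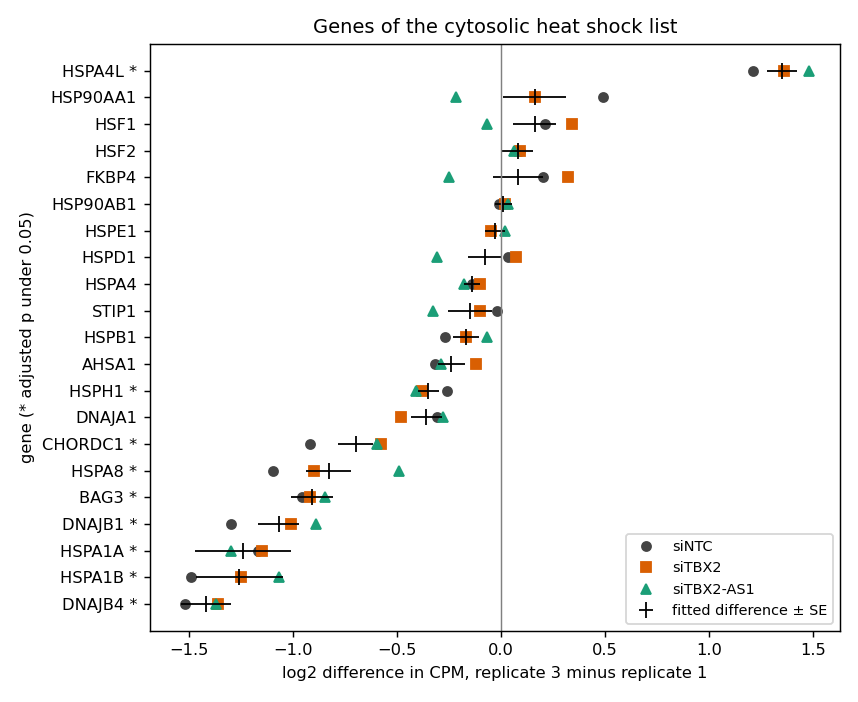
Log2 difference between replicate 3 and replicate 1 for the 21 genes of the cytosolic heat shock list, drawn as for the p53 targets. The 8 genes called lower run from HSPH1 at -0.35 to DNAJB4 at -1.42, the HSP90 genes lie near 0 and HSPA4L lies alone at 1.35.

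Some genes stood far lower in the libraries of replicate 3 than in those of both other numbers, under all 3 siRNAs. ANXA2, a membrane-binding annexin that belongs to the mesenchymal list, had 2949, 2074 and 2099 counts in siNTC, siTBX2 and siTBX2-AS1 of replicate 1, 1895, 1681 and 1430 in replicate 2, and 160, 139 and 78 in replicate 3. Replicate 3 was 15.6-fold below replicate 1 (log2 difference -3.97 ± 0.10 SE), and replicate 2 stood with replicate 1. The departure of replicate 2 from the midpoint was 1.75 ± 0.07 (SE, adjusted p = 0.00221, edgeR). Its pseudogene copy ANXA2P2, at about 1 CPM or less, differed by -3.59 ± 0.49 (SE), and reads of the pair cannot be fully told apart.

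VGLL3, a cofactor of TEAD transcription factors on chromosome 3, had 610, 666 and 695 counts in replicate 1, 503, 526 and 428 in replicate 2 and 33, 38 and 24 in replicate 3. The replicate 3 libraries were thus far below the other 6, at -4.08 ± 0.11 (SE), and replicate 2 departed from the midpoint by 1.87 ± 0.08 (SE, adjusted p = 0.00221, edgeR). MAGEB1, a cancer-testis antigen gene named after its values were seen, followed the same pattern with 216 to 280 counts in replicate 1, 242 to 297 in replicate 2 and 20 to 35 in replicate 3. So did CTCFL, the germline paralogue of CTCF, with 78 to 104, 113 to 121 and 2 to 3 counts. Their replicate 2 departures were 1.79 ± 0.13 (adjusted p = 0.0104, edgeR) and 3.08 ± 0.18 (SE, adjusted p = 0.00550, edgeR).

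Replicate 3 was also lowest, with replicate 2 near replicate 1, for CRIM1, a transmembrane protein that binds BMPs, the simple-epithelial keratin gene KRT18 and the homeobox gene PRRX1. CRIM1 had means of 47.0 ± 20.5, 40.4 ± 3.71 and 6.35 ± 2.19 CPM (SD, n = 3) in replicates 1, 2 and 3. KRT18 had 8.04 ± 1.26, 7.57 ± 0.86 and 2.10 ± 0.25 CPM. PRRX1 had 90 to 193 counts in replicate 1, 115 to 137 in replicate 2 and 6 to 8 in replicate 3. All 3 were called lower, at -2.86 ± 0.25, -1.93 ± 0.11 and -3.87 ± 0.44 (SE), but their replicate 2 departures did not pass, with adjusted p values of 0.106, 0.0525 and 0.0938 (edgeR). KRT18 made up most of the summed epithelial markers, which were 10.4 to 12.9 CPM in replicates 1 and 2 and 4.25 to 5.24 CPM in replicate 3, while KRT5 was at 0 in all libraries and CDH1 at or near 0. The other epithelial markers EPCAM and CLDN4 had means of 0.75 and 1.38 CPM in replicate 1 and 0.73 and 1.11 CPM in replicate 3.

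In a different pattern replicates 2 and 3 stood together. LINC00938, a long noncoding RNA named after its values were seen, had 528, 524 and 584 counts in siNTC, siTBX2 and siTBX2-AS1 of replicate 1, 13, 18 and 24 in replicate 2 and 24, 17 and 20 in replicate 3. The replicate 1 libraries were thus far above the other 6. Its difference of -4.43 ± 0.24 (SE) was called, and its replicate 2 departure was -2.42 ± 0.22 (SE, adjusted p = 0.0358, edgeR).

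Some genes were graded over all 3 numbers. NECTIN4, an adhesion gene named after its values were seen, had 12 to 34 counts in replicate 1, 104 to 174 in replicate 2 and 242 to 721 in replicate 3, a difference of 4.67 ± 0.23 (SE). Its replicate 2 departure from the midpoint was 0.52 ± 0.17 (SE, adjusted p = 0.328, edgeR). ELN, which encodes elastin, was graded downward, with means of 26.7 ± 1.82, 12.02 ± 0.79 and 7.16 ± 1.90 CPM (SD, n = 3) in replicates 1, 2 and 3 and no overlap.

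Over all 697 called genes, replicate 2 was nearer replicate 1 (a position under 0.25) for 175, between 0.25 and 0.75 for 387 and nearer replicate 3 for 135, with a median position of 0.48. The contrast of replicate 2 with the midpoint called 18 of 18367 genes (0.098%), 12 higher and 6 lower, by edgeR at an adjusted p under 0.05. In the same contrast 2236 genes had an unadjusted p under 0.05, and DESeq2 called 386. Of the 18, 13 were also called between replicates 3 and 1. The other 5 included NRSN2, SFRP1, TMPRSS15 and the pseudogene YWHAZP10, the last pair named after their values were seen. The neuronal vesicle gene NRSN2 had means of 3.81 ± 0.80, 12.6 ± 1.96 and 5.63 ± 1.63 CPM (SD, n = 3) in replicates 1, 2 and 3, and its departure was 1.46 ± 0.10 (SE, adjusted p = 0.0104, edgeR). SFRP1, a secreted WNT antagonist, was lower in replicate 2 by -0.46 ± 0.05 (SE, adjusted p = 0.0447, edgeR). When any 1 library was left out the contrast called 2 to 13 genes, 2 to 10 of them among the 18. ANXA2 and VGLL3 were called in all 9 such fits, with adjusted p values up to 0.0471, RAB30-DT in 6, CTCFL and LRRC17 in 5, NRSN2 in 3, MAGEB1 in 2, and LINC00938, GLDC and SFRP1 in 0. RAB30-DT lost the call without any one of the 3 replicate 2 libraries (adjusted p up to 0.0672, edgeR).

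**Figure D3:**
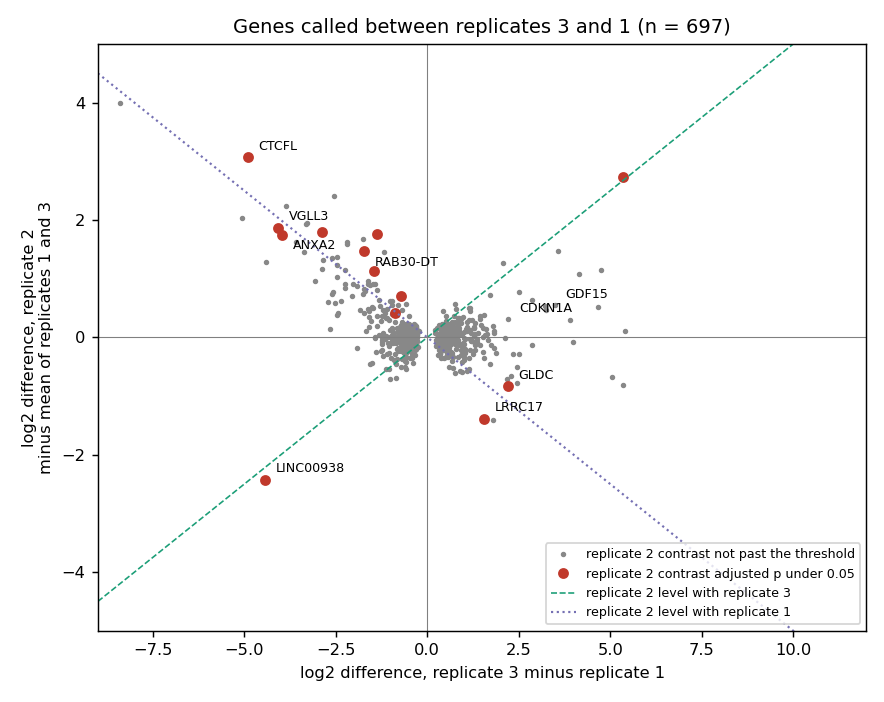
Each point is 1 of the 697 called genes, with its log2 difference between replicates 3 and 1 across and the departure of replicate 2 from their midpoint upward. On the dashed line replicate 2 equals replicate 3 (LINC00938), on the dotted line it equals replicate 1 (ANXA2, VGLL3), and at 0 it is midway; the 13 red points passed the threshold in the replicate 2 contrast.

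LRRC17 and GLDC were higher in replicate 3, with replicate 2 below replicate 1 for LRRC17 and near it for GLDC. LRRC17, which encodes a secreted leucine-rich repeat protein on chromosome 7, was at 16.01, 13.7 and 20.5 CPM in siNTC, siTBX2 and siTBX2-AS1 of replicate 1, at 10.1, 10.5 and 11.9 CPM in replicate 2 and at 44.4, 47.0 and 53.3 CPM in replicate 3. Its replicate 2 libraries were the lowest 3, and the departure was -1.38 ± 0.09 (SE, adjusted p = 0.00905, edgeR). GLDC, the glycine decarboxylase of mitochondria, had 5.28 ± 0.47, 6.37 ± 0.99 and 24.3 ± 3.34 CPM (SD, n = 3) and a departure of -0.83 ± 0.07 (SE, adjusted p = 0.0318, edgeR). RAB30-DT, a noncoding RNA, was the mirror image, at 25.9 ± 4.97, 38.8 ± 3.91 and 7.68 ± 0.55 CPM and 1.46 ± 0.08 (SE, adjusted p = 0.00482, edgeR). In the authors' FPKM its difference between replicates 3 and 1 was -0.13 on the log2(FPKM + 1) scale and -0.15 on the log2(FPKM + 0.1) scale, and limma called neither.

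**Figure D4:**
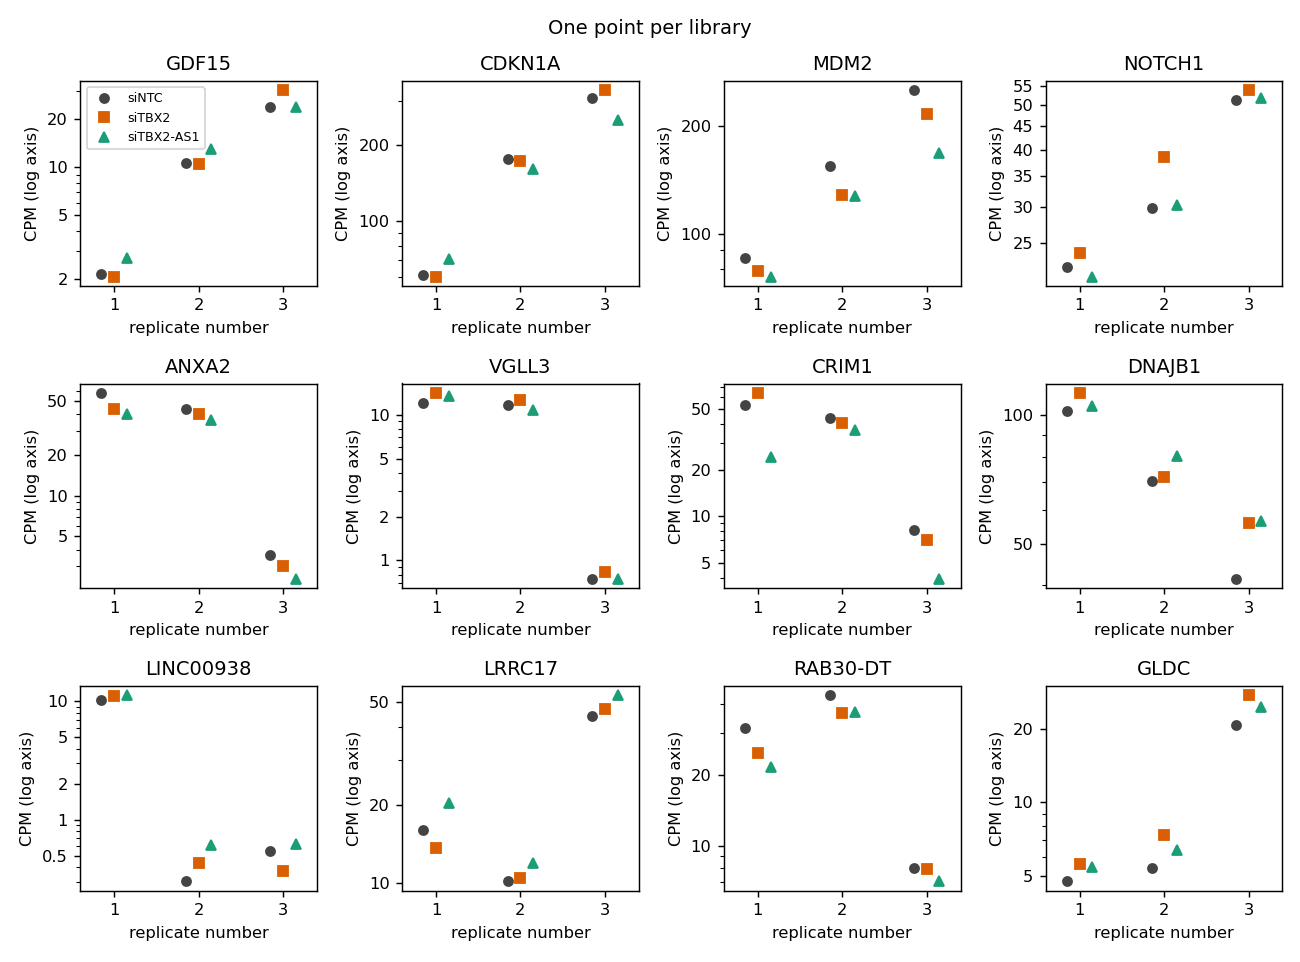
CPM on a log axis for 12 genes by replicate number, 1 point per library and 1 symbol per siRNA. GDF15, CDKN1A, MDM2 and NOTCH1 are highest in replicate 3 with replicate 2 between, ANXA2, VGLL3 and CRIM1 are low in replicate 3 alone, and LINC00938 is high in replicate 1 alone.

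Genes of the matrix, adhesion and TEAD programmes were mostly lower where called. Matrix proteins form the scaffold around cells, and YAP with TEAD factors switches on adhesion and growth genes. Over all genes tested, 2.21% were called lower and 1.58% higher. Of 37 tested matrix and adhesion genes 8 were called lower and 1 higher, with a list median of -0.09. POSTN, which encodes periostin, was at 205.6, 49.2 and 160.2 CPM in siNTC, siTBX2 and siTBX2-AS1 of replicate 1 and at 96.5, 26.6 and 86.4 CPM in replicate 3. Each siRNA's replicate 3 library was the lower one, though the groups overlapped because the siRNAs differed, and the difference was -0.96 ± 0.08 (SE). COL3A1 of type III collagen differed by -0.48 ± 0.06, the fibrillin gene FBN1 by -0.70 and the integrin subunit gene ITGA3 by -1.43 ± 0.20 (SE). DCN, which encodes the proteoglycan decorin, was the higher one, with 20.8 ± 5.95, 20.9 ± 4.16 and 45.0 ± 7.47 CPM (SD, n = 3) in replicates 1, 2 and 3. Of 22 YAP and TEAD targets 6 were called lower and none higher, with a median of -0.15. They were NT5E, CRIM1, GADD45B, CCN1, MYOF and AMOTL2, while the factors YAP1, WWTR1 and TEAD1 differed by 0.03 ± 0.12, 0.25 ± 0.11 and 0.22 ± 0.07 (SE) and were not called. Summed fibroblast and endothelial markers, which include COL3A1 and DCN, were 1365 to 1488 CPM in replicate 1, 1006 to 1075 CPM in replicate 2 and 1082 to 1265 CPM in replicate 3, and their part was not tested. Between 2 and 5 matrix genes and at most 2 TEAD targets were called lower when 1 library was left out.

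Lists of signalling genes had calls in both directions, as did all genes tested, at 2.21% lower and 1.58% higher. Feedback inhibitors of MAP kinase signalling are induced by the pathway they restrain, and in that list of 19 genes 3 were called lower and 1 higher. The lower ones were SPRY2, at 62.4 ± 12.7, 34.3 ± 3.66 and 31.2 ± 5.48 CPM (SD, n = 3) in replicates 1, 2 and 3, and the phosphatase genes DUSP4 and DUSP10, at -0.70 and -0.69. The receptor kinase gene EPHA2, in the same list, was called higher at 1.01 ± 0.16 (SE), but in only 1 of the 9 fits that leave out a library. Of 22 immediate early genes FOS, JUNB and KLF10 were called lower at -1.03, -0.61 and -0.63, and ARC and BTG2 higher at 1.51 and 1.47. BTG2 was also described above with the p53 targets. The list median was -0.36, and it was -0.62, -0.42 and -0.13 within siNTC, siTBX2 and siTBX2-AS1. It ran from -0.53 to -0.13 with 1 library left out. With 1 library left out, 1 to 3 of the feedback genes and at most 1 of the immediate early genes were called lower. EGR1 was at 7.87, 10.2 and 3.52 CPM in replicate 1 and 2.20, 2.92 and 3.01 CPM in replicate 3, at -1.34 ± 0.36 (SE), and was not called. In the NOTCH list of 16 genes the receptor genes NOTCH1 and NOTCH3 were called higher at 1.24 and 0.64, and the ligand gene JAG1 and the effector gene HEY1 lower at -0.80 and -0.75. NOTCH1 was at 22.3 ± 1.31, 32.9 ± 4.92 and 52.4 ± 1.34 CPM (SD, n = 3) in replicates 1, 2 and 3.

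Few or no genes were called in the housekeeping, neuronal and cell cycle lists. None of 40 ribosome biogenesis genes, 51 respiratory chain subunits or 33 noradrenergic and neuronal genes was called, by edgeR's quasi-likelihood test, with medians of -0.02, -0.03 and -0.06. At an unadjusted p under 0.05 the counts were 5, 5 and 5, and DESeq2 called 3 (1 higher and 2 lower), 1 (lower) and 1 (higher). Of 42 G1/S genes edgeR called only PCNA and MCM2, higher at 0.29 and 0.30, and of 42 mitotic genes only CKS2, lower at -0.48. DESeq2 called 3 G1/S genes higher and 2 lower, and 5 mitotic genes lower and none higher. At an unadjusted p under 0.05 (edgeR) the counts were 10 and 11, against 4141 of all 18367 genes tested. The medians were 0.05 and -0.06, with 27 of the G1/S genes above 0 and 32 of the mitotic genes below it. PCNA is also a known target of p53. Of 24 adrenergic transcription factors, which set the neuroblast identity, 3 were called lower and none higher, against 2.21% of all genes called lower. The list as a whole did not lean that way, with a median of 0.04, 15 members above 0 and 9 below. Only 8 had one sign under all 3 siRNAs. The members called lower are thus a small part of the list. Those called lower were PHOX2A at -0.43 ± 0.07, HAND2 at -0.40 ± 0.05 and HEY1 at -0.75 ± 0.11 (SE), while MYCN differed by 0.08 ± 0.07 (SE). HAND2 was at 205.5 to 247.2 CPM in replicate 1 and 150.3 to 193.3 CPM in replicate 3, without overlap. With 1 library left out, at most 1 of the adrenergic factors and none of the G1/S genes was called. EPAS1, which encodes the hypoxia factor HIF-2α and was named after its values were seen, was called lower at -1.37 ± 0.08 (SE), whereas 1 of 25 hypoxia targets was, ANGPTL4 at -0.64.

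By edgeR, lysosomal and interferon genes were called lower and none higher, against 2.21% of all genes called lower and 1.58% higher. DESeq2 called 10 lysosomal genes lower and none higher, and 8 interferon genes lower and 1 higher. Of 31 lysosome and autophagy genes 5 were lower, with the cathepsin genes CTSA and CTSD at -0.57 and -0.40, GABARAPL1 at -0.74, SQSTM1 at -0.36 and PSAP at -0.32, and a median of -0.18. Of 37 interferon-stimulated genes 4 were lower, IFI6 at -0.68, BST2 at -0.55, IFI44 at -0.50 and STAT2 at -0.46, with a median of -0.25. With 1 library left out, at most 2 lysosomal and at most 2 interferon genes were called lower, and at most 1 interferon gene higher. Beside these stood the stress ligand genes MICA and MICB, recognised by natural killer cells and named after their values were seen, called lower at -1.22 ± 0.18 and -1.59 ± 0.27 (SE). MICA was called in 0 and MICB in 1 of the 9 fits that leave out a library.

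Chromosome 3 stood apart as a whole, a pattern chosen after it was seen and given without a test. Over its 561 protein-coding genes with a mean log2 CPM above 3 the median difference between replicates 3 and 1 was 0.10, and 69.0% of the genes were higher in replicate 3. For the other chromosomes the medians ran from -0.07 to 0.04 and the share of genes higher from 38.0% to 55.8%. Within siNTC, siTBX2 and siTBX2-AS1 the chromosome 3 median was 0.10, 0.12 and 0.09. It was 0.10 also over the 534 genes that were not called, and -0.01 for replicate 2 over replicate 1. In blocks of 25 consecutive genes, 21 of 22 blocks of chromosome 3 had a median above 0, from -0.05 to 0.23, against 117 of 361 blocks elsewhere (32.4%). Chromosomes 6 and 12 leaned furthest the other way, with medians of -0.07 and -0.06 that were below 0 within each siRNA. There 3 of 19 and 3 of 21 blocks had a median above 0. This lean was not particular to them. Chromosomes 17 and 10, among others, had medians of -0.05 and -0.04, with 4 of 22 and 2 of 14 blocks above 0. Copy number was not measured in these files.

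**Figure D5:**
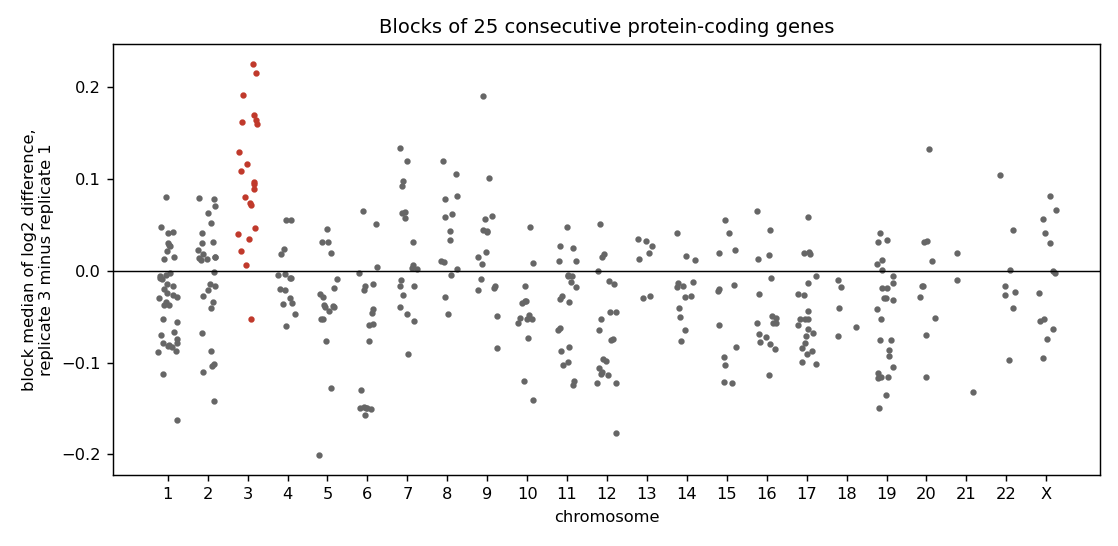
Median log2 difference between replicate 3 and replicate 1 in blocks of 25 consecutive protein-coding genes, 1 point per block, by chromosome. Of the 22 blocks of chromosome 3 (red), 21 lie above 0, while blocks of the other chromosomes lie on both sides of 0 or, on chromosome 18, below it.

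The share of called genes differed with level and length. With the genes cut into 5 equal classes, it was 1.36% in the lowest and 4.95% in the highest class of mean level, 1.53% in the shortest and 5.66% in the longest class of transcript length, and 4.33% in the lowest and 3.59% in the highest class of GC content. Median differences were within 0.05 of 0 in all classes of length and GC content, and 0.09 in the lowest class of level. By gene type the median was -0.02 for protein-coding genes, 0.14 for lincRNA, 0.17 for antisense and 0.33 for sense intronic genes. The sense intronic median was uneven, at 0.42, 0.09 and 0.44 within siNTC, siTBX2 and siTBX2-AS1, and 1 of 173 such genes was called. Of the gene types, protein-coding genes were called at 4.59% and processed pseudogenes at 0.278%.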

How the data were processed

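RNA from 9 libraries was measured. Per the labels' protocols, library preparation started from total RNA, included removal of ribosomal RNA and kept strand. The submitters' processing notes name the build hg19 and the tools FastQC, STAR 2.4.2a and StringTie 1.3.3. The counting program, annotation and strand setting are not named in those sources. The authors' deposited table of expected counts (estimated counts per gene, whole numbers, so no rounding was needed) was the basis of all results, and the authors' deposited FPKM (scaled to length and depth) served as an alternative only. Of 57757 gene IDs 52286 had a symbol.

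Genes were filtered with filterByExpr on the siRNA, scaled by TMM and fitted in edgeR 4.0.16 (R 4.3.3) by robust quasi-likelihood with siRNA and replicate number as factors, which leaves 4 residual degrees of freedom. The script was tested on simulated data. The libraries compared, the gene lists and the tests were chosen with earlier results of these data known. Named genes were the 12 largest called each way (mean log2 CPM at least 2, the same sign under all siRNAs), up to 3 called members of each list by size, 5 called each way for replicate 2, 4 genes of widest spread between siRNAs, both siRNA targets, all members of the p53 and heat shock lists, and genes said to be named after their values were seen. Further list members and partner genes named in the text outside these rules, such as MDM4 and MYCN, were also chosen after values were seen. Some genes that these rules select are not reported here. GENCODE 29 gave chromosomes and gene order by ID; it uses GRCh38, a newer build than that of the files.

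Alternatives were DESeq2 1.42.0, limma-voom and limma 3.58.1 on log2 FPKM, other scalings and filters, other models, and leaving out each library. Figures were made with matplotlib 3.10.9 in Python 3.11.15. Labels give no separate source for replicates beyond the word biological, so p values measure the spread between these libraries, which may in part be technical. Lists not described had few or no called members.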

Additional observations from a re-analysis of the deposited data

How the results depend on the processing

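All 697 genes called between replicates 3 and 1 kept their direction under RLE and upper-quartile scaling, DESeq2, limma-voom, every left-out library and both other models. All 697 already had one sign under all 3 siRNAs. Refits of the same libraries could therefore hardly reverse a direction, and no conclusion is drawn from this. With limma on FPKM 694 did, and 667 of 667 still tested did with at least 1 CPM in 3 libraries. The count was 704, 665, 779 and 737 under RLE scaling, upper-quartile scaling, at least 1 CPM in 3 libraries and limma-voom. It was 427 without a filter on low counts, 1704 with DESeq2, 141 and 161 with limma on log2(FPKM + 1) and log2(FPKM + 0.1), 51 with only the libraries of replicates 1 and 3, and 138 with no treatment block. With 1 library left out it was 99 (without siTBX2 replicate 1) to 285 (without siTBX2 replicate 2). Every one of these fits has fewer samples. The count was 201 to 285 without a replicate 2 library and 99 to 134 without a library of replicate 1 or 3. The 18 genes of the replicate 2 contrast became 386 with DESeq2, 6 and 9 with limma on log2(FPKM + 1) and log2(FPKM + 0.1), and 2 to 13 with 1 library left out. Causes of all these shifts were not tested.

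Of 131 named genes called between replicates 3 and 1, 44 were called with any library left out and 29 in none of those 9 fits. Log2(FPKM + 1) understates differences of genes with low FPKM. VGLL3 was at -0.75 there and at -2.56 on log2(FPKM + 0.1), while RAB30-DT was at -0.13 and -0.15. With the replicate block the siTBX2 knockdown called 873 genes against 295 without it, and the siTBX2-AS1 knockdown 1741 against 840. Deviations from the siRNA mean correlated at 0.06 to 0.24 between same-numbered libraries, and all 9 libraries correlated best with their own number. The deviations within one siRNA cancel out, which lowers the correlations between unlike numbers. The 9 outcomes are thus tied to this centring and to one another, and no conclusion is drawn from them. The labels state no pairing by number, and what the number stands for was not tested. The p53 target median was 0.78 to 0.85 under the alternatives other than left-out libraries, with 7 to 23 members called higher.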

Other observations

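A few abundant genes jumped between libraries without regard to siRNA or replicate number. SOX4, a transcription factor of neural progenitors, had 7284, 6117 and 975 counts in replicates 1, 2 and 3 of siNTC. Under siTBX2 it had 412, 7940 and 8351, and under siTBX2-AS1 8762, 6118 and 135. The histone gene H2AC6 had 222, 12941 and 12772 counts, then 16560, 12939 and 289, then 15028, 10833 and 8903 in the same order. H2AC7 had 14534, 10648 and 122, then 12129, 9414 and 11114, then 144, 7435 and 67 counts. RBM12B had 6736, 595 and 305, then 586, 730 and 702, then 806, 235 and 4560 counts. None was called between replicates 3 and 1, and the SE of their log2 differences was 1.9 to 2.1. Among genes whose mean log2 CPM reached 4, these 4 had the widest spread of differences between siRNAs. How expected counts were assigned to these genes was not tested, and their values are uncertain.

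The 3 neighbouring cytochrome P450 genes CYP4F3, CYP4F12 and CYP4F2 on chromosome 19 were called in opposite directions. CYP4F3 had 0 to 5 counts in replicate 1 and 42 to 94 in replicate 3, CYP4F2 had 0 to 2 and 24 to 49, and CYP4F12, which lies between them, had means of 3.70 ± 2.55 and 0.608 ± 0.273 CPM (SD, n = 3). They are related in sequence, so their separate values are uncertain. Of the 9 fits that leave out a library, CYP4F3 was called in 0, CYP4F2 in 6 and CYP4F12 in 9, and CYP4F3 was not called by limma on FPKM. Among all called genes 44 pairs were neighbours, 31 of them in one direction, among them MICA with MICB on chromosome 6. Some pairs share a gene or are related in sequence. The same counts were not taken over all neighbouring genes tested, so no clustering is read from them.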
